A study of Mus musculus with 38 samples.

Results

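The 37 genes encoded by mouse mitochondrial DNA were described in 38 bulk RNA libraries from lung adenocarcinoma organoids. The genes were those whose mouse symbol begins with mt-, found by matching the Ensembl IDs of the 3 deposited count tables to symbols, and no measured value entered this choice. All 37 were listed in each table, among 55421 IDs in the double-floxed table and 55487 IDs in each of the single-floxed and hairpin tables. They comprised 13 protein-coding genes, 2 rRNA genes and 22 tRNA genes. All lay on chromosome M of GRCm38, from base 1 (mt-Tf) to base 15422 (mt-Tp), with 28 genes annotated on the plus strand and 9 on the minus strand.

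Organoids are tumour-cell cultures kept in a gel, here Matrigel with L-WRN conditioned medium, and each line was derived from 1 mouse tumour of Mixed 129/B6 strain. The alleles shared by all groups included p53frt (a p53 gene that Flp recombinase deletes) and Rosa-FSF-CreERT2 (a Cre recombinase that works only after 4-hydroxytamoxifen, 4-OHT). Double-floxed organoids, with Foxa1flox and Foxa2flox, gave 5 libraries after 4-OHT and 5 after vehicle from lines 1027B, 1027D and 1292B. From organoids with Foxa1flox alone (lines 1552A, 1552B and 1552C) there were 6 libraries after 4-OHT and 6 after vehicle, and from organoids with Foxa2flox alone (lines 1267B and 1526C) 4 after 4-OHT and 4 after vehicle. These are called Foxa1-floxed and Foxa2-floxed. In the hairpin experiment, double-floxed line 1027B carried shNKX2-1 or shScramble and gave 2 libraries in each of 4 groups. Treatment was 2 uM 4-OHT or ethanol vehicle for 72 hours. The time from treatment to RNA collection, the way rRNA was depleted or mRNA selected, the strand setting, the read length and the rule for reads with several matches were details not given in the sources used here. No line lacked floxed alleles, so loss of Foxa1 or Foxa2 cannot be told apart from an action of 4-OHT or of active Cre. Repeat libraries of a line are not separate tumours, and the hairpin experiment used a single line. The labels do not say which repeats came from separate cultures, so p-values measure the spread between these libraries, which may be technical.

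Mitochondrial DNA is a small circle that is transcribed as long precursor RNAs from both strands. The precursors are cut at the tRNAs that stand between most of the other genes. The products are the rRNAs of the mitochondrial ribosome, the tRNAs that serve it, and mRNAs for core subunits of respiratory complexes I, III and IV and of ATP synthase. The remaining subunits of these complexes, and all of complex II, are encoded in the nucleus. The nuclear genome also holds inserted copies of mitochondrial sequence, and a read from the organelle can match such a copy equally well.

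Libraries held 18.3 to 32.0 M counts for double-floxed organoids, 18.5 to 33.2 M for the single-floxed genotypes and 13.6 to 16.3 M for the hairpin experiment. Levels are in CPM (a counts-per-million scale over all counts of a library). Foxa2 was at 0.293 to 6.79 CPM in all 4-OHT libraries with floxed Foxa2, against 59.7 to 180 CPM in their vehicle libraries, and Foxa1 in Foxa1-floxed organoids was at 13.9 to 16.7 CPM with 4-OHT and at 38.9 to 74.2 CPM with vehicle. In double-floxed organoids Foxa1 was at 9.59 to 16.9 CPM with 4-OHT and at 17.5 to 86.3 CPM with vehicle, and over both hairpins at 17.6 to 21.7 CPM with 4-OHT and at 21.9 to 34.3 CPM with vehicle. Nkx2-1 was at 180 to 352 CPM in shNKX2-1 libraries and at 366 to 442 CPM in shScramble libraries. Epithelial markers (Epcam, Cdh1, Krt8, Krt18 and Krt19) summed to 4793 to 16654 CPM. Sums were 5.34 to 49.1 CPM for 7 leukocyte markers, at most 4.53 CPM for 6 fibroblast markers, 7.43 CPM for 4 endothelial markers, 5.93 CPM for 3 muscle markers and 0.430 CPM for 5 erythroid markers. The replicate 2 library of shNKX2-1 organoids with 4-OHT stood apart from the other 37, and the levels, shares, balances and edgeR results of the mitochondrial genes that rest on it are also given without it. Group means pool libraries whose titles open with different numbers, which are described further on.

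Several of the genes have nuclear copies so alike that short reads may not tell them apart, and 3 such pairs are shown because the levels of these genes turn on it. Capitals mark each base at which the gene and its copy differ, and all are written 5' to 3' on the gene's own strand, from GRCm38. The first pair is the start of mt-Atp6 (chrM:7927-7986, plus strand), a subunit of ATP synthase, and its copy Gm10925 (chr1:24614592-24614651, minus strand), which were identical over all 678 aligned bases.
mt-Atp6: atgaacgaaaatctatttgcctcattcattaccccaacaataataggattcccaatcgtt
Gm10925: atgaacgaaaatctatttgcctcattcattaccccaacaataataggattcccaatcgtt
The second pair is mt-Nd3 (chrM:9459-9518, plus strand), a complex I subunit, and Gm28438 (chr1:24613060-24613119, minus strand), with 1 mismatch in 345 bases.
mt-Nd3: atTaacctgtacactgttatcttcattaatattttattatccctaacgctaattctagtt
Gm28438: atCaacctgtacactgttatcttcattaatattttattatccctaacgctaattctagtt
The third pair is a more diverged copy of part of mt-Nd2 (chrM:4442-4501, plus strand), also a complex I subunit, in Gm13339 (chr2:22590474-22590533, minus strand), with 17 mismatches in 510 bases.
mt-Nd2: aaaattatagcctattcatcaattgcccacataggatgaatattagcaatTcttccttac
Gm13339: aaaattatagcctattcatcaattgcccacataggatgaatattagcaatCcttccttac

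The extent of copying was measured as the share of a gene's 50-base windows that occurred in no annotated nuclear transcript. This share was 0% for mt-Co2, 0.136% for mt-Co3, 0.475% for mt-Atp6, 1.21% for mt-Nd4l and 2.01% for mt-Nd3. Their copies, Gm28661, Gm28437, Gm10925, Gm10222 and Gm28438, lie together on chromosome 1 and are annotated as unprocessed pseudogenes. The share was 37.8% for mt-Nd4 (copy Gm28439) and 48.9% for mt-Co1 (copies Gm29216 and Gm13340). It was above 90% for the other 6 protein-coding genes, for both rRNA genes and for every tRNA gene. Sequence outside annotated transcripts was not searched.

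Mean levels are over the 37 libraries other than shNKX2-1 4-OHT replicate 2. The most counted member was mt-Co1, the catalytic core subunit of complex IV, with a mean of 10346 ± 2849 CPM (SD, n = 37 libraries), and it ranked first among the protein-coding genes in 38 of 38 libraries. It was followed by mt-Cytb, the complex III core subunit, at 4203 ± 1342 CPM, and ranked second in 35 of 38. Complex I subunits came next, with mt-Nd1 at 3081 ± 1290, mt-Nd5 at 2183 ± 802, mt-Nd2 at 1942 ± 779 and mt-Nd4 at 1247 ± 469 CPM. In the library left out these 6 genes had 9305 (mt-Nd4) to 23569 CPM (mt-Co1). Together with mt-Co1 and mt-Cytb, these 4 held 93.8% to 98.6% of all mitochondrial counts in every library. Much lower were the copied genes, with means of 31.8 CPM for mt-Atp6, 39.2 CPM for mt-Co2, 25.9 CPM for mt-Co3, 6.11 CPM for mt-Nd4l and 6.12 CPM for mt-Nd3. With the library left out added they were 68.1, 65.7, 35.5, 18.4 and 10.1 CPM in the same order. The small ATP synthase subunit mt-Atp8, which overlaps the start of mt-Atp6, had a mean of 12.4 CPM, or 26.4 CPM over all 38. It had counts in 27 of 38 libraries, and none of its windows was found in an annotated nuclear transcript.

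Levels can be compared between genes only per length, and only where reads could be assigned. On a scale of CPM per kilobase, mt-Cytb (3674), mt-Nd1 (3219), mt-Nd2 (1871) and mt-Nd5 (1197) ranked in this order on average over the 37 libraries and in 29 of all 38. Only the top of this order varied much, since mt-Cytb was above mt-Nd1 in 30 libraries while mt-Nd1 was above mt-Nd2 in 38 and mt-Nd2 above mt-Nd5 in 37. Far below stood mt-Nd6, the protein-coding gene on the opposite strand, at 22.2 CPM per kilobase and 11.5 ± 6.83 CPM. The 9 minus-strand genes together, mt-Nd6 and 8 tRNA genes, took 0.0526% of all mitochondrial counts. Where genes of opposite strands overlap, as mt-Nd5 and mt-Nd6 do at their ends, the split of reads depends on the strand setting.

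The rRNA genes took a small part of the counts. The large-subunit rRNA mt-Rnr2 had 487 ± 264 CPM and the small-subunit rRNA mt-Rnr1 253 ± 117 CPM (SD, n = 37), which is 308 and 265 CPM per kilobase. Over all libraries, protein-coding genes held 97% of mitochondrial counts, rRNA genes 2.95% and tRNA genes 0.0566%. Since the rRNA treatment of these libraries is unknown, these shares cannot be read as the balance of the RNAs in the cell. The 2 rRNAs did not keep a fixed ratio, since mt-Rnr2 counts per mt-Rnr1 count ran from 0.726 to 4.39 and exceeded 1 in 34 of 38 libraries. High ratios were found in line 1526C, at 3.75 and 3.78 with 4-OHT and 4.39 and 3.01 with vehicle, and in line 1552A, at 4.33 and 3.33 with 4-OHT and 3.42 and 2.73 with vehicle.

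Among the tRNA genes, mt-Tl1 and mt-Tw took 82.95% of the counts. The leucine tRNA gene mt-Tl1, which lies between mt-Rnr2 and mt-Nd1, had a mean of 7.12 CPM over the 37 libraries, the tryptophan tRNA gene mt-Tw 3.38 CPM, the threonine tRNA gene mt-Tt 1.00 CPM and the methionine tRNA gene mt-Tm 0.35 CPM. Over all 38 libraries the other 18 means lay below that of mt-Tm, and 4 tRNA genes had counts in 1 library only. Mature tRNAs are short, and counts over a tRNA gene can also come from longer RNAs that span it, which was not tested.

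The levels of the copied genes, and of mt-Atp8, differed with the number that opens a library's title. Titles opened with 17699 (8 libraries), 17992 (6), 19659 (16) or 19063 (8), and the labels do not say what these numbers stand for. The 5 copied genes mt-Co2, mt-Co3, mt-Atp6, mt-Nd3 and mt-Nd4l summed to 0.70 to 2.87 CPM in 17699, 0.60 to 2.27 CPM in 17992, 15.04 to 52.5 CPM in 19659 and 417 to 3474 CPM in 19063. The highest value was the shNKX2-1 4-OHT replicate 2 library, and without it the 19063 range was 417 to 667 CPM. For mt-Atp8 the level was 0 CPM in all 17699 libraries and 0 to 0.0933 CPM in 17992. It was 2.18 to 13.9 CPM in 19659 and 38.1 to 72.4 CPM in 19063, with 542 CPM in the shNKX2-1 4-OHT replicate 2 library. None of its windows was found in an annotated nuclear transcript. Its neighbours mt-Co2 and mt-Atp6 have copies at chr1:24614885-24615565 (Gm28661) and chr1:24613974-24614651 (Gm10925). The stretch between these copies was not searched, so whether it holds a copy of mt-Atp8 was not tested. The sum of 11 nuclear genes listed as copies, of which Gm20594 is annotated as protein-coding and the other 10 as unprocessed pseudogenes, differed too, with 21.2 to 31.3, 4.91 to 7.84, 55.3 to 209 and 1169 to 2002 CPM without that library, which had 12499 CPM. These ranges did not overlap for the nuclear copies. The 4 abundant genes with few copies, mt-Nd1, mt-Nd2, mt-Nd5 and mt-Cytb, summed to 7935 to 14903, 6681 to 9836, 5841 to 19444 and 9968 to 21827 CPM in the same libraries. These ranges overlapped except between 17992, with at most 9836 CPM, and 19063, with at least 9968 CPM.

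**Figure D1:**
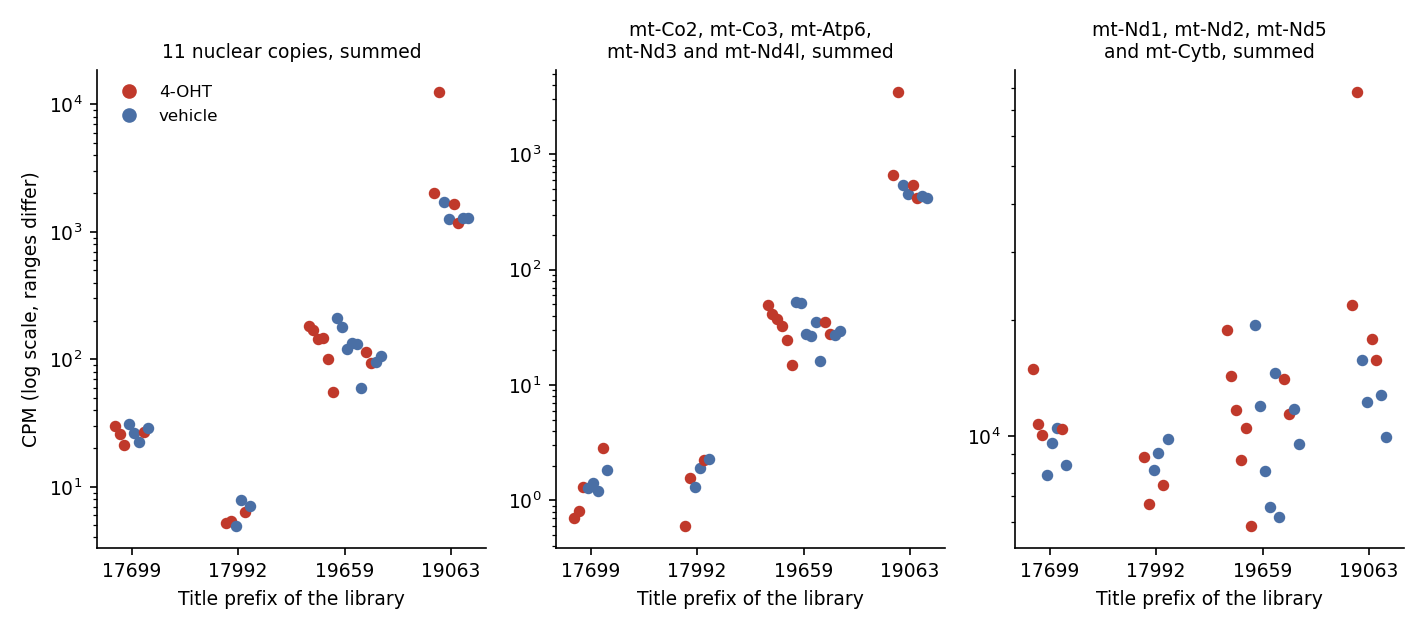
Summed CPM (log axes whose ranges differ) of 11 nuclear copies, of the 5 copied mitochondrial genes and of 4 mitochondrial genes with few copies, by the number that opens each library's title; each point is 1 of 38 libraries. The 8 libraries of 19063 lie between 1169 and 12499 CPM for the nuclear copies, above all others, while in the panel on the right, at 9968 to 77906 CPM, they lie above all libraries of 17992 and overlap with 17699 and 19659.

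Line 1027B was present in 3 of these sets, which allowed the same tumour to be compared. Its nuclear copies summed to 29.9 CPM with 4-OHT and 31.3 CPM with vehicle in 17699, and to 5.21 CPM with 4-OHT and 4.91 CPM with vehicle in 17992. In 19063, where the line carried a hairpin, the same sum was 1169 to 12499 CPM. Hairpin and title number cannot be told apart here. In the tests of single genes, mt-Atp6, mt-Atp8, mt-Co2, mt-Co3 and mt-Nd4l did not pass the low-count filter in the double-floxed table, and these 5 were tested in the single-floxed and hairpin tables only.

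The share of all counts that came from the 37 genes was 1.09% to 4.30% in 37 libraries and 11.7% in the shNKX2-1 4-OHT replicate 2 library. In double-floxed organoids it was 2.61, 2.00, 2.03, 1.90 and 1.80% with 4-OHT, against 1.96, 2.13, 2.16, 1.91 and 2.40% with vehicle. The groups overlapped, with means of 2.07 ± 0.314% with 4-OHT and 2.11 ± 0.194% with vehicle (SD, n = 5 each). The mean difference within lines, 4-OHT minus vehicle, was -0.06 percentage points, and its sign was positive in 1 of 3 lines. In Foxa1-floxed organoids the lowest, median and highest shares were 1.09, 2.42 and 3.31% with 4-OHT, against 1.11, 2.35 and 3.73% with vehicle, with means of 2.36 ± 0.786% with 4-OHT and 2.42 ± 0.887% with vehicle (SD, n = 6 each). The means of lines 1552A and 1552C differed more than those of the treatments. Line 1552A averaged 3.14% with 4-OHT and 3.31% with vehicle, while line 1552C averaged 1.51% with 4-OHT and 1.87% with vehicle. The repeats of line 1552C also lay apart, at 1.92 and 1.09% with 4-OHT and 2.62 and 1.11% with vehicle. Spread between lines was therefore not separated from spread between repeats. Foxa2-floxed organoids had 2.44, 2.16, 2.38 and 2.01% with 4-OHT, against 2.08, 2.52, 1.96 and 1.89% with vehicle, and these also overlapped, with means of 2.25 ± 0.196% with 4-OHT and 2.11 ± 0.281% with vehicle (SD, n = 4 each). Over the 8 lines the share was higher with 4-OHT in 3 and lower in 5. No mean difference exceeded the SD between libraries, which also holds the spread between lines.

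Shares were higher after 4-OHT in the hairpin experiment. In shNKX2-1 organoids they were 4.30 and 11.7% with 4-OHT, against 3.33 and 2.56% with vehicle. In shScramble organoids they were 3.47 and 2.98% with 4-OHT, against 2.50 and 2.29% with vehicle. Treated and vehicle libraries of a hairpin did not overlap. The difference was 0.83 percentage points for shScramble, 5.05 for shNKX2-1 and 1.35 for shNKX2-1 without its replicate 2. Between hairpins, shares were also higher with shNKX2-1 than with shScramble, by 0.55 percentage points in vehicle libraries and by 4.77 in 4-OHT libraries, or by 1.07 without the replicate 2 library. Each group had 2 libraries, and no test was run on these sums over members. Untransduced line 1027B, in other sets, had 2.61 and 1.90% with 4-OHT, against 1.96 and 1.91% with vehicle. A share rises whether mitochondrial RNA increases or other RNA decreases, and in bulk samples a change in the mix of cells cannot be told apart from a change per cell.

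**Figure D2:**
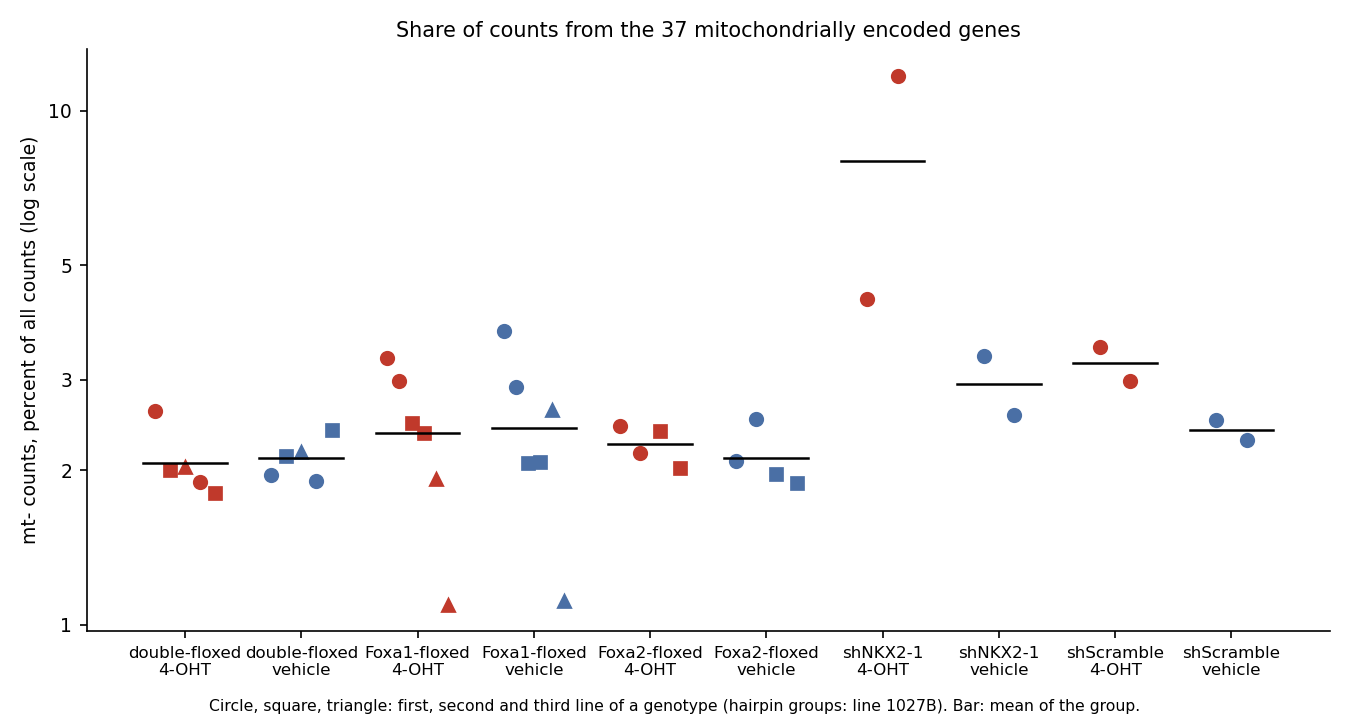
Share of all counts from the 37 mitochondrially encoded genes (percent, log axis) in each of 38 libraries; red is 4-OHT and blue is vehicle, symbols mark the line and bars mark group means. The floxed groups overlap between 1.09 and 3.73%, while the 4 hairpin libraries with 4-OHT lie at 2.98 to 11.7% and the 4 with vehicle at 2.29 to 3.33%.

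The balance between rRNA and mRNA was expressed as rRNA counts (mt-Rnr1 plus mt-Rnr2) per 100 counts of the 13 protein-coding genes. It ran from 1.38 to 6.49, with a median of 3.15 over 38 libraries. In double-floxed organoids it was 3.08, 3.21, 4.75, 2.86 and 2.33 with 4-OHT, against 6.31, 2.32, 6.49, 3.71 and 1.38 with vehicle. Both extremes of the whole series were vehicle libraries of this genotype, from lines 1292B and 1027D. The within-line difference, 4-OHT minus vehicle, was -2.04 in line 1027B, 0.92 in line 1027D and -1.74 in line 1292B. Foxa1-floxed organoids had a lowest, median and highest of 1.58, 3.08 and 3.84 with 4-OHT, against 1.44, 3.13 and 3.75 with vehicle. Foxa2-floxed organoids had 3.49, 1.82, 3.39 and 3.20 with 4-OHT, against 3.11, 1.49, 2.67 and 2.66 with vehicle, higher in both lines by 0.36 and 0.63. This mean difference of 0.49 was smaller than the SD between libraries of 0.737, but that SD also holds the spread between lines and title numbers. Each 4-OHT library of this genotype was above the vehicle library of the same replicate number. No test was run on this. Over the 8 lines the balance was higher with 4-OHT in 4.

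In the hairpin groups the balance was 3.87 and 1.83 with shNKX2-1 and 4-OHT, 2.17 and 2.81 with shNKX2-1 and vehicle, 4.16 and 3.51 with shScramble and 4-OHT, and 3.25 and 4.03 with shScramble and vehicle. Vehicle libraries did not overlap between hairpins, with shNKX2-1 lower by 1.15 than shScramble. In 4-OHT libraries the difference, shNKX2-1 minus shScramble, was -0.98, and 0.04 without the shNKX2-1 replicate 2 library.

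The balance also differed between repeats of the same line and treatment. In the 6 such pairs whose titles opened with 17992 and 17699, the 17992 library was the lower one in 6 of 6, at 0.479 to 0.928 times the other. In the 8 pairs within 19659, the higher-numbered replicate was also the lower one in 7 of 8, at 0.577 to 1.08 times the lower-numbered one. The widest of these gaps was in Foxa1-floxed line 1552C with vehicle, at 1.44 in replicate 6 and 2.49 in replicate 5. Treatments were balanced over these sets within each line, so each line had both treatments under each number.

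**Figure D3:**
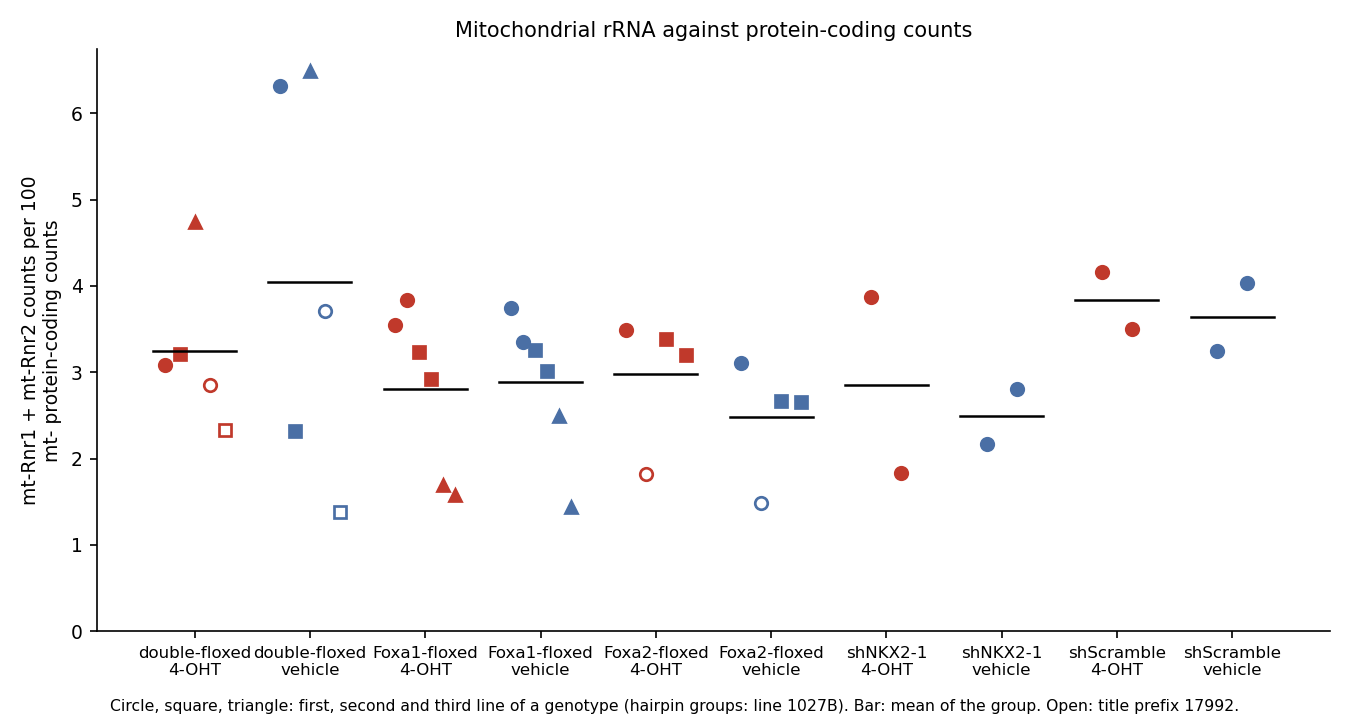
Mitochondrial rRNA counts per 100 mitochondrial protein-coding counts in each of 38 libraries; red is 4-OHT and blue is vehicle, symbols mark the line, open symbols mark titles that open with 17992 and bars mark group means. Values run from 1.38 to 6.49, both in double-floxed vehicle libraries. Within the double-floxed and Foxa2-floxed groups the open symbols lie below the filled ones of the same line and treatment.

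Single genes were tested with edgeR's quasi-likelihood test over all genes that passed the low-count filter, with organoid line as a block in the floxed comparisons and a Benjamini-Hochberg adjusted p under 0.05 as the threshold for a call. In double-floxed organoids, 4-OHT against vehicle, 0 of 13 tested members were called, where 3.9% of all 15198 tested genes were. The smallest edgeR adjusted p was 0.294, for mt-Nd3, at -0.71 ± 0.35 (log2, SE). Fitted log2 changes of members ran from -0.72 (mt-Tt) to 0.35 (mt-Nd2), with a median of -0.11 against 0.02 over all genes. The core complex I gene mt-Nd2 had 2491, 1807, 1952, 1695 and 983 CPM with 4-OHT, against 1029, 1344, 2167, 1432 and 1031 CPM with vehicle, a log2 change of 0.35 ± 0.24 (SE; edgeR adjusted p = 0.475). For mt-Co1 the values were 8703, 7405, 8201, 8483 and 10100 CPM with 4-OHT, against 9558, 10237, 8874, 9279 and 13567 CPM with vehicle. Each 4-OHT library of mt-Co1 was below the vehicle library of the same replicate number, but the log2 change of -0.25 ± 0.19 (SE) did not pass the edgeR test (adjusted p = 0.528).

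In Foxa1-floxed organoids 0 of 19 members were called, where 0.0118% of all 16887 genes were. The smallest edgeR adjusted p was 0.465, for mt-Rnr1, the small-subunit rRNA. It had a lowest, median and highest of 71.8, 197 and 289 CPM with 4-OHT, against 82.0, 264 and 304 CPM with vehicle, a log2 change of -0.46 ± 0.23 (SE). The groups overlapped over most of their range. In Foxa2-floxed organoids 0 of 19 members were called, where 3.43% of genes were, and the median log2 change was 0.23 against -0.01 over all genes. The tryptophan tRNA gene mt-Tw had the smallest edgeR adjusted p, 0.467, at 1.19, 1.52, 4.03 and 2.77 CPM with 4-OHT, against 1.38, 1.14, 1.38 and 1.80 CPM with vehicle. The difference between the 4-OHT effects of Foxa2-floxed and Foxa1-floxed organoids gave 0 calls among 19 members, where 0.266% of genes were called. At an unadjusted p under 0.05, edgeR counted 0 members in each of the 3 genotypes and 1, mt-Rnr1, in the difference between effects. Of all genes it counted 3088 of 15198 in double-floxed organoids. It counted 1928 of 16887 in Foxa1-floxed organoids, 2391 in Foxa2-floxed organoids and 1347 in the difference. DESeq2 called 0 members in all 4, where it called 1892 of 15198 genes, and 245, 985 and 202 of 16887, in the same order.

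**Figure D4:**
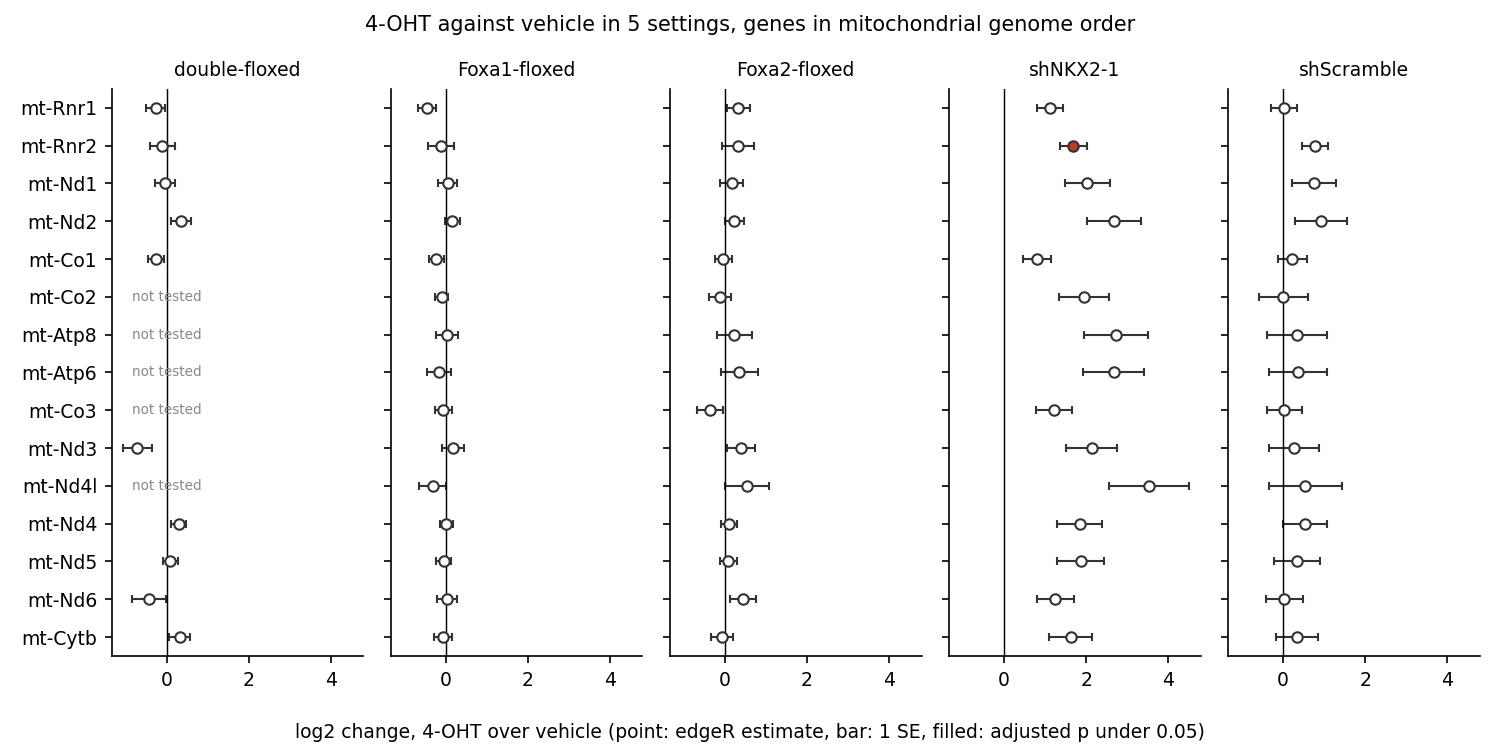
Fitted log2 change, 4-OHT over vehicle, of the 13 protein-coding and 2 rRNA genes in 3 floxed genotypes and 2 hairpin settings; points are edgeR estimates, bars are 1 SE and a filled point has an adjusted p under 0.05. In the 3 floxed genotypes the points shown lie between -0.71 and 0.54, and in shNKX2-1 organoids all 15 lie above 0, with mt-Rnr2 the only filled one.

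In shNKX2-1 organoids, 4-OHT against vehicle, 1 of 19 tested members was called, where 6.35% of all 14465 tested genes were. The large-subunit rRNA mt-Rnr2 had 1176 and 1560 CPM with 4-OHT, against 497 and 424 CPM with vehicle. Both treated libraries were above both vehicle libraries, with a log2 change of 1.69 ± 0.33 (SE; edgeR adjusted p = 0.0224). Without the 4-OHT replicate 2 library the change was 1.37 and stayed called (edgeR adjusted p = 0.0343), and without vehicle replicate 1 or 2 it was 1.80 or 1.55 and was not called (edgeR adjusted p = 0.126 and 0.178). Over all alternatives its adjusted p ran from 3.17e-07, without the low-count filter, to 0.178. All 19 fitted changes were above 0, from 0.60 for mt-Tt to 3.54 for mt-Nd4l, and their median was 1.86, and 0.58 without the 4-OHT replicate 2 library. DESeq2 called 14 of 19 members, where it called 1786 of all 14465 genes. At an unadjusted p under 0.05 edgeR counted 18 members, where 3566 of all 14465 genes were. Without the low-count filter edgeR called 18 of 32 members, where it called 2455 of 25049 genes.

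The protein-coding genes of shNKX2-1 organoids had large fitted changes with wide errors, and their 2 treated libraries differed. For mt-Nd2 the values were 4187 and 19332 CPM with 4-OHT, against 2272 and 1818 CPM with vehicle, a log2 change of 2.68 ± 0.66 (SE; edgeR adjusted p = 0.0518). For mt-Co1 they were 15990 and 23569 CPM with 4-OHT, against 14048 and 10535 CPM with vehicle, a log2 change of 0.81 ± 0.35 (SE; edgeR adjusted p = 0.203). Treated and vehicle libraries did not overlap for either gene. Without the 4-OHT replicate 2 library the log2 change was 1.06 ± 0.26 (SE; edgeR adjusted p = 0.0539) for mt-Nd2, 0.40 ± 0.26 (SE; edgeR adjusted p = 0.423) for mt-Co1 and 0.59 ± 0.27 (SE; edgeR adjusted p = 0.257) for mt-Nd4l.

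In shScramble organoids, 4-OHT against vehicle, 0 of 19 members were called, where 4.33% of genes were. Here mt-Rnr2 had 1039 and 624 CPM with 4-OHT, against 520 and 441 CPM with vehicle, a log2 change of 0.78 ± 0.32 (SE; edgeR adjusted p = 0.292). The tRNA gene mt-Tw had 6.75 and 2.61 CPM with 4-OHT, against 1.78 and 1.07 CPM with vehicle, a log2 change of 1.70 (edgeR adjusted p = 0.204). These 2 were the members at an unadjusted p under 0.05, where 2194 of all 14465 genes were. DESeq2 called 0 members, where it called 1092 of all 14465 genes. For mt-Nd2 the values were 3535 and 3124 CPM with 4-OHT, against 2073 and 1422 CPM with vehicle, which did not overlap, with a log2 change of 0.92 ± 0.63 (SE; edgeR adjusted p = 0.582).

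Between hairpins, 0 of 19 members were called in vehicle organoids, shNKX2-1 against shScramble, where 0.235% of genes were. No member had an unadjusted p under 0.05, where 1123 of all 14465 genes did. DESeq2 called 0 members there, and 284 of all 14465 genes. In 4-OHT organoids 0 of 19 were called by edgeR, where 1.58% of genes were. There 14 members had an edgeR unadjusted p under 0.05, where 2016 of all 14465 genes did. DESeq2 called 11 members, where it called 704 of all 14465 genes. These counts include the shNKX2-1 4-OHT replicate 2 library. Without the replicate 2 library edgeR called 0, and 2 members had an unadjusted p under 0.05. The difference between the 4-OHT effects of the hairpins (shNKX2-1 minus shScramble) gave 0 calls among 19 members in edgeR, where 0% of genes were called. It had 3 members at an unadjusted p under 0.05, where 782 of all 14465 genes were. DESeq2 called 0 members in it, and 84 of all 14465 genes. The 4-OHT effect on mt-Rnr2 was not shown to differ between hairpins: the difference was 0.91 ± 0.45 (log2, SE; edgeR adjusted p = 0.866), and 0.62 ± 0.39 without the shNKX2-1 4-OHT replicate 2 library (edgeR adjusted p = 0.856). The comparisons of the hairpin experiment share groups and are not independent of each other.

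The shNKX2-1 4-OHT replicate 2 library differed from its replicate 1 in a gene-dependent way. Its level was 12.9 times that of replicate 1 for mt-Nd4l, 7.49 times for mt-Atp8, 6.73 times for mt-Atp6, 4.62 times for mt-Nd2 and 4.52 times for mt-Co2. The ratio was 3.03 to 4.21 for mt-Nd3, mt-Nd5, mt-Nd4, mt-Nd1 and mt-Cytb, 2.57 for mt-Co3 and 1.97 for mt-Nd6. It was lowest for mt-Co1 at 1.47, mt-Rnr2 at 1.33 and mt-Rnr1 at 1.28. All 15 of these genes were higher in this library than in any other hairpin library. The share of mitochondrial counts taken by mt-Co1 was 20.1% there, against 37.2% in replicate 1, while mt-Nd2 took 16.5%, against 9.74%. In the other 3 hairpin groups the log2 ratio of replicate 2 to replicate 1 lay between -0.68 and 0.19 for every protein-coding gene.

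**Figure D5:**
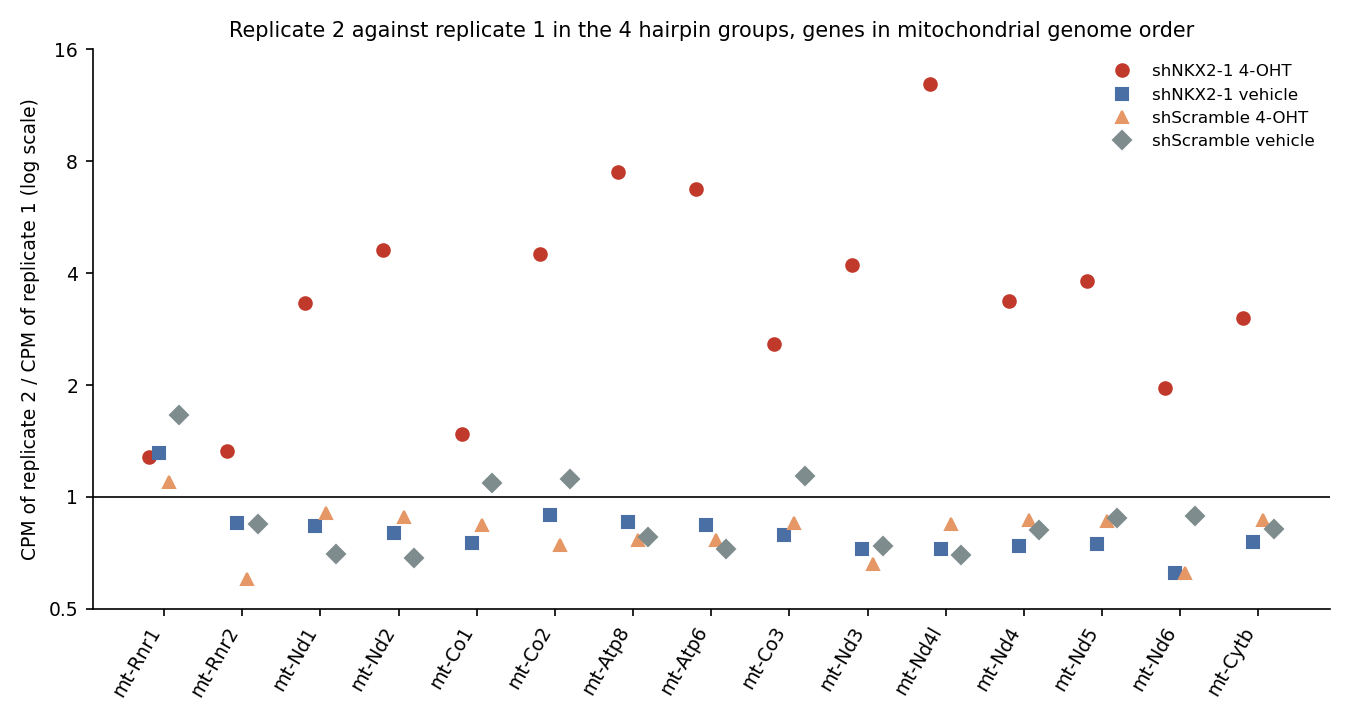
Ratio of CPM in replicate 2 to CPM in replicate 1 (log axis) for the 13 protein-coding and 2 rRNA genes in the 4 hairpin groups, in the order of the mitochondrial genome. In shNKX2-1 organoids with 4-OHT the ratios run from 1.28 for mt-Rnr1 to 12.9 for mt-Nd4l, while in the other 3 groups all lie below 2.

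Nuclear genes also differed between these libraries. Of 4740 nuclear genes with a mean of at least 50 CPM, 976 (20.6%) differed by 2-fold or more between the 2 shNKX2-1 4-OHT replicates, against 0.143% to 2.21% in the other 3 hairpin groups. Among the 10 nuclear genes with the highest ratio were 7 mitochondrial copies, Gm10222, Gm13339, Gm28439, Gm13341, Gm10925, Gm28661 and Gm28438, with Gm7665, Hmgn5 and Snrpd1. The 10 with the lowest ratio included Gdf15, a secreted factor of the mitochondrial stress response, at 9.78 in replicate 2 and 128 in replicate 1 (CPM of nuclear counts, as for the next genes). They also included Ftl1, the ferritin light chain, at 752 in replicate 2 and 5514 in replicate 1, and Tspo, a protein of the outer mitochondrial membrane, at 20.8 in replicate 2 and 150 in replicate 1. The other 7 were Gm23935, Hmga1b, Sphk1, CT010467.1, 1110008P14Rik, Tst and Pim3. These genes were ranked on this difference itself and carry no test. The library had 13.7 M counts and 18973 detected genes, against 13.6 to 16.3 M and 18813 to 19273 in the other 7 hairpin libraries. The 100 nuclear genes with the highest mean share over all hairpin libraries took 13.2% of its nuclear counts, against 14.9% to 16.3% in the others. That set was drawn mostly from the other libraries, so it does not measure how concentrated this library's own counts were. Ribosomal protein genes took 2.17% of counts, against 3.02% to 5.01% in the others. Malat1, an abundant nuclear RNA, was at 507 CPM, within the 351 to 527 CPM of the others. Foxa2 was at 0.293 CPM, against 1.88 CPM in replicate 1. The part of these differences in the mitochondrial levels was not tested.

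Nuclear partners of the mitochondrial genes were read from the same edgeR tests. Of 75 nuclear genes for subunits of complexes I to V, all were tested and 0 were called in any of the 9 comparisons, with 0 to 10 at an unadjusted p under 0.05. DESeq2 called 1 of them in double-floxed and 4 in shNKX2-1 organoids, 4-OHT against vehicle. There it called 1892 of 15198 and 1786 of 14465 of all genes. It called 0 of the 75 in the other 7 comparisons. Their fitted changes were above 0 for 42 of 75 in double-floxed, 43 in Foxa1-floxed, 48 in Foxa2-floxed, 39 in shNKX2-1 and 47 in shScramble organoids, 4-OHT against vehicle. Among 78 mitochondrial ribosomal protein genes edgeR called at most 1 in a comparison. Mrpl50 fell in double-floxed organoids with 4-OHT (log2 change -1.09 ± 0.22 SE, edgeR adjusted p = 0.0318), where 3.9% of all genes were called. Mrpl4 fell in shNKX2-1 organoids with 4-OHT (-1.11 ± 0.26 SE, edgeR adjusted p = 0.0425), where 6.35% of all genes were called. Sqstm1, a selective autophagy receptor that also serves mitophagy, rose in double-floxed organoids with 4-OHT (1.15 ± 0.24 SE, edgeR adjusted p = 0.0386). It was 1 of 12 genes of mitophagy and mitochondrial dynamics, where 3.9% of all genes were called. DESeq2 called up to 6 of the ribosomal protein genes and up to 2 of the mitophagy genes in a comparison. Over the 9 comparisons it called 84 to 1892 of all tested genes. By edgeR, 0 genes were called in the lists of mitochondrial transcription (15 genes), mitochondrial DNA maintenance (12), mitochondrial RNA processing and decay (20) or the mitochondrial stress response (16), with at most 2, 2, 3 and 5 at an unadjusted p under 0.05 in a comparison. DESeq2 called at most 0, 1, 2 and 2 of these genes. In shNKX2-1 organoids the 11 nuclear copies summed to 2002 and 12499 CPM with 4-OHT, against 1707 and 1267 CPM with vehicle, the 12499 CPM being the replicate 2 library. In the shNKX2-1 4-OHT replicate 2 library, nuclear complex I subunits summed to 2071 CPM of nuclear counts, against 2397 to 2538 in the other 7 hairpin libraries. Among markers of other cells, the macrophage receptor gene Csf1r rose with 4-OHT in double-floxed organoids (log2 change 4.49 ± 0.66 SE, edgeR adjusted p = 0.0114) and in Foxa2-floxed organoids (2.37 ± 0.44 SE, edgeR adjusted p = 0.00756). Itgam, an integrin of myeloid cells, rose in Foxa2-floxed organoids (2.22 ± 0.57 SE, edgeR adjusted p = 0.0403), where it was at most 0.842 CPM. Of the 7 leukocyte markers edgeR called at most 2 in a comparison. Over the floxed libraries Adgre1 was at 0 to 0.0367 CPM, Ptprc, Cd3e and Cd79a at most 2.71 CPM and Cd68 at 3.605 to 42.8 CPM. Whether leukocytes were present was not tested. The epithelial keratin gene Krt19 fell with shNKX2-1 against shScramble in 4-OHT organoids (-1.33 ± 0.25 SE, edgeR adjusted p = 0.0444). In none of these 3 comparisons did edgeR call a mitochondrial gene. DESeq2 called 11 in the last, where it called 704 of all 14465 genes.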

How the data were processed

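RNA from 38 mouse lung adenocarcinoma organoid libraries (total RNA, directional library kit, per the labels' protocols) was given as 3 tables of raw counts per Ensembl gene ID, deposited by the authors with replicates kept apart. STAR 2.7.6a, featureCounts 1.5.1, DESeq2 and GRCm38 are named, per the submitters' processing notes, with no role or order.

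The members and gene lists were chosen with earlier results of these data known. All 13 protein-coding and both rRNA genes are named. A tRNA gene is named if it was among the 4 with the highest mean CPM or was called. Of each list, up to 2 called genes per direction and comparison are named, and for the shNKX2-1 4-OHT replicate 2 library the 10 nuclear genes per direction with the largest ratio to replicate 1.

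Shares and balances are ratios of the deposited counts, with no test. Differences between treatments are means over lines. Genes were tested with edgeR 4.0.16 in R 4.3.3 (quasi-likelihood test, filterByExpr, TMM, Benjamini-Hochberg adjusted p under 0.05), with line as a block in the floxed tables and 4 group means for hairpins. The labels pair the samples by line: deviations of the 4-OHT and vehicle means of a line from the mean over lines correlated at 0.705 to 0.921 over genes in 8 lines. The 2 Foxa2-floxed lines mirror each other and so have the same value, 0.8945. Their titles also open with different numbers, so line and title number cannot be told apart there. Alternatives were DESeq2 1.42.0, another normalization, library sizes from nuclear genes, no low-count filter, other blocks, and leaving out each library. Nuclear copies were found with blastn 2.17.0 in annotated GRCm38 transcripts, using 50-base windows for exact matches. The test was checked on simulated data. One allele that all groups share is not reported here.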

Additional observations from a re-analysis of the deposited data

Results flagged for a closer look

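Each of 17 measures (the share, the balance and the 15 protein-coding and rRNA levels) was examined in 6 floxed groups of 4 to 6 libraries for a library far from the others of its group. Of 102 such checks 8 stood out. A chance rate of about 1 in 20 would need unrelated measures with normally spread values. These measures share counts and some groups hold mostly 0, so the 8 are not read as an excess. The share of all counts was 2.605% in double-floxed 4-OHT replicate 1, against 1.80% to 2.03% in the other 4. The level of mt-Atp8 was 0.03129 CPM in double-floxed 4-OHT replicate 5 and 0.09332 CPM in double-floxed vehicle replicate 5, with 0 in the other libraries of each group, so both rest on very few reads. In Foxa1-floxed vehicle replicate 1, mt-Atp8 was at 9.869 CPM, against 2.67 to 5.32 CPM in the others. The level of mt-Nd4l was 0.03387 CPM, which is 1 count, in double-floxed vehicle replicate 4, against 0. It was 9.483 CPM in Foxa1-floxed vehicle replicate 2, against 1.38 to 3.25 CPM. For mt-Nd3 it was 1.54 CPM in double-floxed vehicle replicate 5, against 1.02 to 1.15 CPM. For mt-Rnr1 it was 82.02 CPM in Foxa1-floxed vehicle replicate 6 of line 1552C, against 246.8 to 304.4 CPM. Hairpin groups of 2 libraries were too small for this check.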

How the results depend on the processing

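In the floxed comparisons, fits with no replicate block, with counts summed per line, and, where it could be fitted, with a replicate block of line and title number all called 0 members, as did the fit with line as the block. Of all genes, the fit with no block called 82 of 13384 in double-floxed organoids. It called 1 and 5 of 16417 in Foxa1-floxed and Foxa2-floxed organoids. With counts summed per line these were 564 of 16343, and 0 and 73 of 18384. The block of line and title number called 1783 of 15198 genes in double-floxed and 914 of 17508 in Foxa2-floxed organoids. Where few genes were called at all, 0 members says little. Without the low-count filter edgeR called 1 of 35 members, mt-Rnr1, in Foxa1-floxed organoids, where it called 1141 of 32375 genes. In the difference between Foxa2-floxed and Foxa1-floxed effects it called 1, mt-Rnr1, where it called 728 of these genes. In the hairpin experiment it called 3 of 32 members in shScramble and 18 in shNKX2-1 organoids. Of all 25049 genes it called 1372 and 2455 there. It called 15 members between hairpins with 4-OHT and 9 in the difference between 4-OHT effects, where it called 1058 and 227 genes. DESeq2 called 14 in shNKX2-1 organoids and 11 between hairpins with 4-OHT, where it called 1786 and 704 of all 14465 genes. Leaving out 1 library at a time gave 0 to 17 calls in shNKX2-1 organoids, 0 to 15 between hairpins with 4-OHT and 0 to 12 in the difference between 4-OHT effects. The counts of 17, 15 and 12 were reached without shNKX2-1 4-OHT replicate 1, which left replicate 2 as the lone library of its group, assumed to vary like the others. In shNKX2-1 organoids 0 were called without vehicle replicate 1 or 2. The fits without shNKX2-1 4-OHT replicate 1 also called many more of all tested genes than the main fits did. The rise in calls was therefore not limited to mitochondrial genes. In shNKX2-1 organoids, the fits without vehicle replicate 1 or 2 called fewer of all tested genes than the main fit did. The fall to 0 was therefore not limited to mitochondrial genes either. The cause of these changes in calls was not tested. The other 120 counts of calls equalled the main count, which was 0 except in shNKX2-1 organoids, 4-OHT against vehicle. Most are therefore 0 against 0 and carry no measure of stability. In the floxed comparisons 39 values of the share and 33 of the balance moved by less than the SD between libraries. With 2 libraries a group, as for the hairpins, that comparison with the SD is fixed by construction, so ranges without 1 library at a time are given. The share, 4-OHT minus vehicle, was 1.35 to 8.76 percentage points in shNKX2-1 and 0.581 to 1.08 in shScramble organoids, and shNKX2-1 minus shScramble was 1.07 to 8.48 with 4-OHT and 0.166 to 0.933 with vehicle. For the balance the same ranges were -0.66 to 1.38, -0.19 to 0.59, -2.002 to 0.04 and -1.54 to -0.76, so that its sign changed in 3 of the 4 comparisons. No direction of a called value reversed. The hairpin libraries, with 13.6 to 16.3 M counts and 2 a group, allow little precision.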
